A study of Homo sapiens with 8 samples.

Results

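Peaks of open chromatin were examined at 9 well-known long non-coding RNA (lncRNA) genes, MALAT1, NEAT1, HOTAIR, HOTTIP, HOTAIRM1, MIR17HG, TUG1, GAS5 and SNHG1, out of 62062 genes in the GENCODE 44 annotation, 18756 of which are typed as lncRNA. The genes were chosen by name, MALAT1 because the study names it and HOTAIR because it is a known partner of the complex studied. For each gene, all peaks in the gene body and within 5 kb of its annotated transcription start sites (TSSs) were taken. Overlapping peaks of the 8 libraries were merged into regions, which gave 32 regions in these 9 windows out of 101836 in all. The annotation types 8 of the 9 as lncRNA and TUG1 as protein coding, a gene name long used for a non-coding transcript.

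The data came from an assay for transposase-accessible chromatin (ATAC-seq), in which a transposase inserts adapters into accessible DNA, in HEK293T cells, an established human embryonic kidney line. Stable lines were made by lentiviral infection with EZH2 WT, with Y641F or A677G, which the study calls gain-of-function (GOF) mutants, or with the double mutant H689A/F667I, called loss-of-function (LOF). Each line had 2 libraries, described by the study as biological replicates. All 4 lines were selected with blasticidin, and the methods describe no removal of the cells' own EZH2, so each mutant was measured beside it. The selection was meant to give monoclonal populations, each mutant stands on 1 line, and all 3 comparisons share the same 2 WT libraries. Lines with an empty vector or without a vector were not analysed here. An exact permutation test of 2 libraries against 2 cannot reach a p under 0.05.

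EZH2 is the catalytic subunit of Polycomb repressive complex 2 (PRC2), which marks silenced genes by methylating lysine 27 of histone H3. LncRNA genes have promoters of their own like coding genes, and many lie head to head with a coding gene and share its promoter. HOTAIR, HOTTIP and HOTAIRM1 lie in the HOX clusters, classical targets of PRC2, while MALAT1 and NEAT1 are abundant nuclear RNAs, and MIR17HG, GAS5 and SNHG1 are hosts of small RNAs.

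The sequences that the results turn on are shown first. The TUG1 promoter, chr22:30969015-30969314 on the plus strand, lies under a peak from end to end in all 8 libraries and belongs to the region that passed a test. In it, capitals mark 1 E-box (CACGTG), 4 GC boxes (GGGCGG) and 2 CCAAT boxes, searched on both strands, of which 2 GC boxes lie next to each other. The MALAT1 promoter, chr11:65497488-65497787 on the plus strand, is shown as that of the gene named by the study, and its capitals mark 5 GC boxes. The third sequence is the 250 bases at HOTAIR, chr12:53973705-53973954, that the peaks of both WT and both A677G libraries share and over which no peak was called in the Y641F and H689A/F667I libraries. It is written on the minus strand, on which HOTAIR is transcribed, with 3 GC boxes in capitals. Promoters were taken from RefSeq (GRCh38.p14), and the HOTAIR stretch was read from hg38.
TUG1 promoter: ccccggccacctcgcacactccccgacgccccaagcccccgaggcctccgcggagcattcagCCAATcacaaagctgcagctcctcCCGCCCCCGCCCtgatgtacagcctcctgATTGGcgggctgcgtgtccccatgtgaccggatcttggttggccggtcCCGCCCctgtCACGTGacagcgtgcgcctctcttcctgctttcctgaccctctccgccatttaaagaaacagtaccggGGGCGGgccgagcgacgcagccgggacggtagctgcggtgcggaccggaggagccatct
MALAT1 promoter: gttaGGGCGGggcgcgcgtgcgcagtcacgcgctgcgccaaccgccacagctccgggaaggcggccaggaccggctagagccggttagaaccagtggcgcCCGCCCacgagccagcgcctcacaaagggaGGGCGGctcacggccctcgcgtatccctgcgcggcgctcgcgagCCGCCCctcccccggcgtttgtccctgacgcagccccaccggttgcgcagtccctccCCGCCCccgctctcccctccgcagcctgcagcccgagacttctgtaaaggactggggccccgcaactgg
HOTAIR region 2: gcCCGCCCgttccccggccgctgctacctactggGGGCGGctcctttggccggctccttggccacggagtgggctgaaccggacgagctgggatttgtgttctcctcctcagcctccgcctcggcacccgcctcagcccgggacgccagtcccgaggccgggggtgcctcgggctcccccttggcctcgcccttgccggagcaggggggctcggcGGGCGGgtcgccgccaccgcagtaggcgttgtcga

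Among 35116 RefSeq promoters of the same length, 45% held a GC box, 34.6% a CCAAT box and 7.26% an E-box. The other motifs searched were an ETS core (CCGGAAG, in 10.3%), a TATA box (TATAAA, in 11.5%) and a core of the CRE site (TGACGT, in 7.98%), none of which was found in the TUG1 or MALAT1 promoter printed here. A match is only a run of letters and says nothing of binding. RefSeq entries were found for 6 of the 9 genes, and HOTAIR, HOTAIRM1 and NEAT1 were not among them. MIR17HG carries the precursors of the miR-17-92 cluster, whose main mature products are printed from RefSeq with the seed, bases 2 to 8, in capitals. miR-17 and miR-20a share 1 seed and miR-19a and miR-19b another, while miR-18a and miR-92a have seeds of their own.
hsa-miR-17-5p: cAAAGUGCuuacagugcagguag
hsa-miR-20a-5p: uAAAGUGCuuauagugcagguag
hsa-miR-18a-5p: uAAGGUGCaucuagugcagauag
hsa-miR-19a-3p: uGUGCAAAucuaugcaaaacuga
hsa-miR-19b-3p: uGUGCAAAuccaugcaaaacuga
hsa-miR-92a-3p: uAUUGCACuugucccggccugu

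The libraries differed in yield, with 64923 and 62514 peaks in WT, 26350 and 36598 in Y641F, 38016 and 46358 in A677G, with 47840 and 48755 in H689A/F667I. Read depth was not given in the sources used here, so the part of depth in these numbers was not tested. At the promoters of 5 HEK293T markers peaks were called in all 8 libraries, while 3 of 5 blood markers (PTPRC, CD3E and SPI1) and 3 of 5 hepatocyte markers (ALB, APOA2 and SERPINA1) had none in any library. A region without a called peak is termed closed below, which does not mean that it lacks signal.

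Chromatin was open at the promoters of 7 of the 9 genes in all 8 libraries, and the other two, HOTAIR and NEAT1, varied between libraries. Of the 32 regions, 12 were open in all 8 libraries, 16 in 2 to 7 and 4 in a single library. Open regions numbered 26 and 25 in the WT libraries, 15 and 22 in Y641F, 20 and 22 in A677G, with 23 and 22 in H689A/F667I. Y641F replicate 1, which had the fewest peaks over the genome, also had the fewest open regions here.

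**Figure D1:**
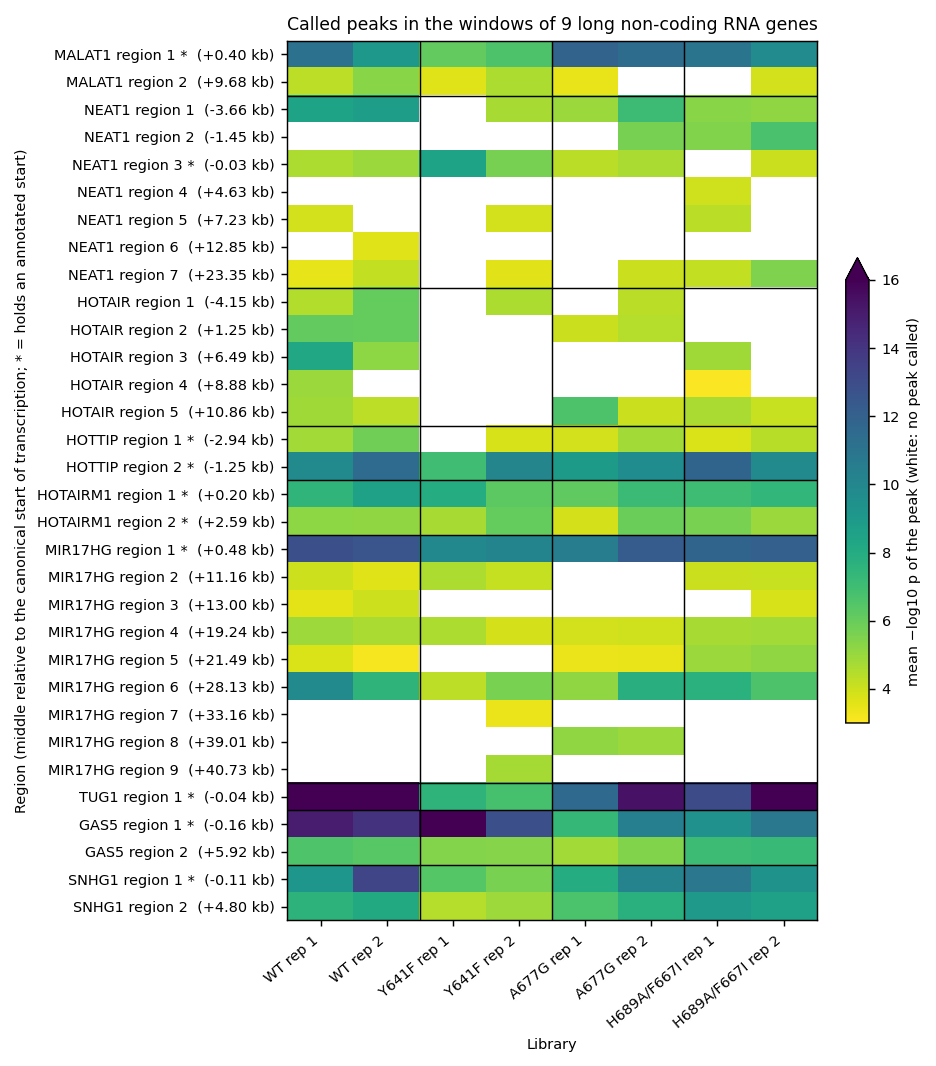
Mean −log10 p of the called peaks (colour) in each of the 32 regions (rows, with the distance of the middle of the region from the canonical start in kb) and 8 libraries (columns), white where no peak was called. The 12 regions open in all 8 libraries belong to 7 genes, and the rows of HOTAIR and NEAT1 are broken in every case.

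Regions were counted as lost in a mutant when both WT libraries had a peak and neither mutant library did, and as gained in the reverse case. In Y641F, 5 of the 24 member regions open in both WT libraries were lost (20.8%), HOTAIR regions 2, 3 and 5 and MIR17HG regions 3 and 5, against 35.3% of all 48615 such regions. In A677G, 3 of 24 were lost (12.5%), HOTAIR region 3 and MIR17HG regions 2 and 3, against 20.8% of all regions. In H689A/F667I, 2 of 24 were lost (8.33%), HOTAIR regions 1 and 2, against 14.2%. Every lost region thus belonged to HOTAIR or MIR17HG, and in each line the share lost was below that over all regions. Gained regions were fewer, with none of 5 in Y641F (1.11% of all regions closed in both WT libraries), MIR17HG region 8 in A677G (1.65%) and NEAT1 region 2 in H689A/F667I (2.83%).

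Losses over the genome were less frequent near start sites, where most member regions lie. Of all regions within 1 kb of any TSS, 16.8% were lost for Y641F, 7.88% for A677G, against 5.02% for H689A/F667I, and of those farther away 46.9%, 28.9% and 19.9%. Among the 19 member regions within 1 kb of a TSS, 4, 3 and 1 were lost, a share above that of all such regions in each line. Among the 5 farther away 1, 0 and 1 were lost, below the share of all such regions in Y641F and A677G. These numbers are too small to set apart from those shares. With each list cut to the 26350 strongest peaks, the number in the smallest library, 0 of 10 member regions were lost for either GOF line and 1 for H689A/F667I, against 11.6%, 6.82% and 6.09% of all regions. In the same lists 3, 1 and 1 of 10 were gained, against 9.3%, 7.67% and 7.02% of all regions. At a −log10 q of at least 5, 6 of 10 were lost in Y641F (60%), which is above the 44.8% over all regions. These were MALAT1 region 1, NEAT1 region 1, MIR17HG region 6, TUG1 region 1 and SNHG1 regions 1 and 2. None of them was among the regions lost in Y641F in the full lists, so the lost regions changed with this limit.

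HOTAIR, transcribed antisense within the HOXC cluster and known for binding PRC2, had fewer called peaks in each of the 6 mutant libraries than in either WT library. WT replicates 1 and 2 had 5 and 4 peaks in the window, Y641F 0 and 1, A677G 2 and 3, and H689A/F667I 3 and 1. The length under peaks was 3082 and 2562 bp in WT, 0 and 717 bp in Y641F, 735 and 1590 bp in A677G, with 1074 and 556 bp in H689A/F667I. All 6 mutant libraries lay below both WT libraries, and the means were 12.7%, 41.2% and 28.9% of WT. Among the 30904 genes covered in both WT libraries, these shares stood at percentiles 16.3, 19.5 and 7.49, so a loss of this size was not rare in these lists.

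HOTAIR region 2 (chr12:53973377-53974032), the region nearest to the canonical start of the gene, lies in an intron. Its middle is 1252 bp downstream of the canonical TSS. The region also lies within 1 kb of the start of HOXC11, a homeobox gene on the opposite strand. It is therefore not a region of HOTAIR alone. Peaks of 656 and 328 bp were called here in WT, of 441 and 313 bp in A677G, and none in the Y641F and H689A/F667I libraries. The −log10 p, the evidence that MACS2 assigns to a peak averaged along it, was 6.10 and 6.08 in WT and 4.06 and 4.44 in A677G. This is the region whose shared 250 bases are printed above, with a GC content of 74.4% and 27 CpG sites.

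Exonic HOTAIR region 3 (chr12:53968202-53968731) was open in both WT libraries, with −log10 p of 8.24 and 5.20, and otherwise only in H689A/F667I replicate 1, at 4.86. Region 5 (chr12:53963552-53964636), toward the 3′ end, was closed in both Y641F libraries and open in the other 6, with peaks of 949 and 1010 bp in WT and 231 to 556 bp in the A677G and H689A/F667I libraries. Upstream region 1 (chr12:53978491-53979719) had peaks in WT replicates 1 and 2 and in replicate 2 of Y641F and of A677G. Region 4 had a peak in WT replicate 1 and H689A/F667I replicate 1 only. Regions 3 and 4 lie 183 and 102 bp downstream of other annotated starts of HOTAIR. Through them its promoter, taken within 1 kb of any start, counted as open in H689A/F667I replicate 1, where region 2 was closed.

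The HOTAIR peaks were weak already in WT, where the fold, the ratio of pileup to local background, averaged 2.44 to 2.78 in the 4 regions open in both libraries. These means lay at percentiles 0.924 to 3.5 of all regions open in both WT libraries, and those of −log10 p at percentiles 14.6 to 46.2. At a −log10 q of at least 5, the peak at region 3 in WT replicate 1 was the only one left in the window. With equal peak numbers, 2 HOTAIR peaks remained in all, in WT replicate 1 and A677G replicate 1, and no region was open in both WT libraries.

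**Figure D2:**
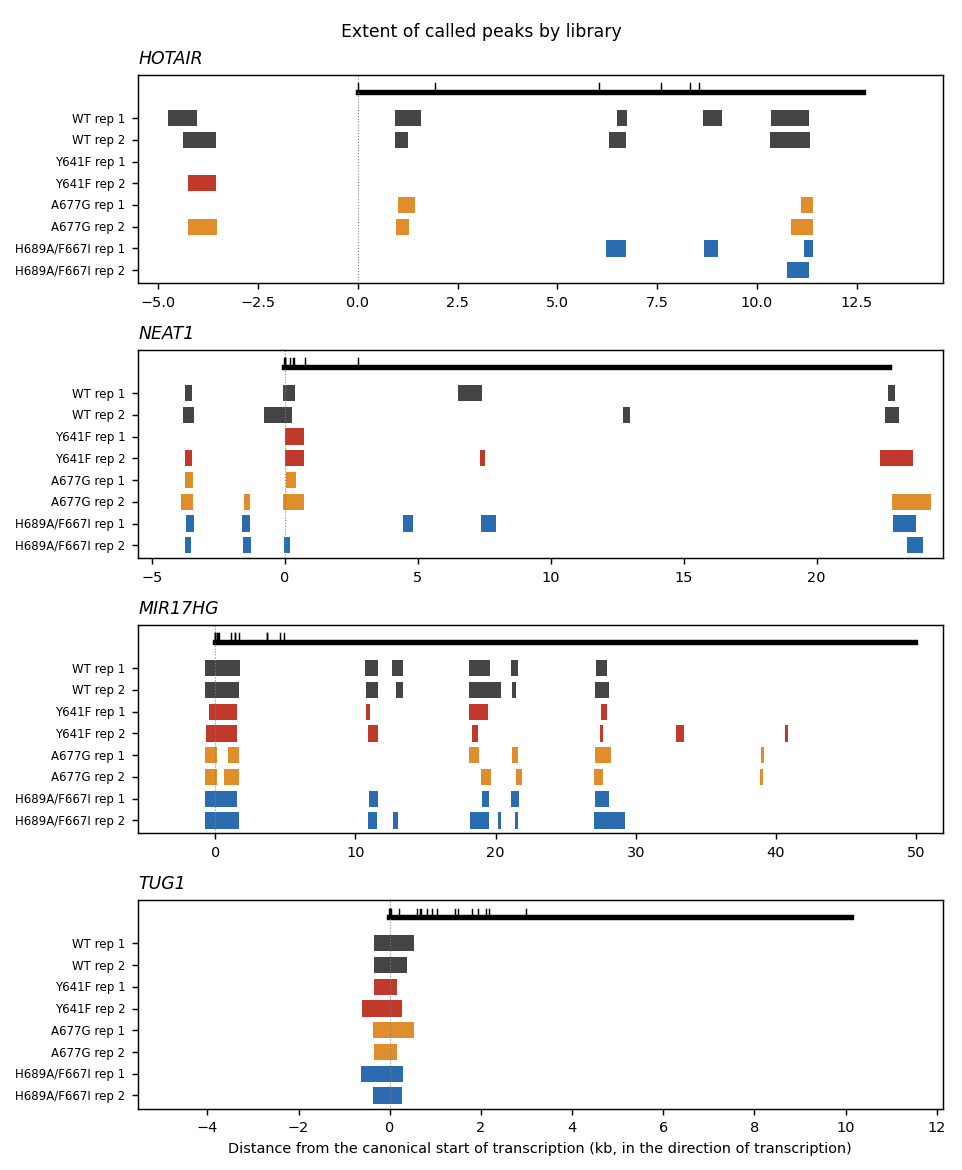
Extent of the called peaks (bars, 1 row per library) at HOTAIR, NEAT1, MIR17HG and TUG1, against the distance from the canonical start in kb in the direction of transcription, with the gene body as a black line and annotated starts as ticks. The HOTAIR row of Y641F replicate 1 is empty, while the single TUG1 peak is present in all 8 libraries.

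HOTTIP, at the distal end of the HOXA cluster and known for carrying an activating complex to the 5′ HOXA genes, kept its main region in every library. HOTTIP region 2 (chr7:27200055-27201124) also holds a start of HOXA13, so the 2 genes cannot be told apart there. Its width was 952 and 838 bp in WT, 515 and 489 bp in Y641F, 744 and 557 bp in A677G, with 746 and 988 bp in H689A/F667I. The −log10 p was 9.77 and 11.4 in WT, 6.996 and 10.1 in Y641F, 8.91 and 9.69 in A677G, with 11.8 and 9.77 in H689A/F667I, with overlap between the groups. Region 1 was closed in Y641F replicate 1 only.

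HOTAIRM1, at the other end of the HOXA cluster and known from myeloid differentiation, was open at both of its regions in all 8 libraries. Region 1 (chr7:27095503-27097095) holds the canonical start, and region 2 (chr7:27098024-27099345) another start of the gene. The fold at region 2 was 2.37 and 2.35 in WT, 2.64 and 2.95 in Y641F, 2.54 and 2.79 in A677G, with 2.86 and 2.63 in H689A/F667I. All 6 mutant libraries were above both WT libraries, and the centred log2 difference was 0.39 ± 0.08 (SE) in Y641F, with a limma adjusted p of 0.0503. The difference did not pass the threshold of 0.05, and it was 0.25 ± 0.08 (limma adjusted p = 0.227) in A677G and 0.27 ± 0.08 (limma adjusted p = 0.398) in H689A/F667I. The width at region 2 was 1234 and 1202 bp in WT, 729 and 237 bp in Y641F, 537 and 1304 bp in A677G, with 886 and 955 bp in H689A/F667I. Since MACS2 averages the fold along a broad peak, a shorter peak leaves out weaker flanks, and the part of width in these fold values was not tested.

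MALAT1, the RNA of nuclear speckles, had an open promoter in all 8 libraries. MALAT1 region 1 (chr11:65496962-65499127) holds 16 annotated starts of the gene and the promoter printed above. Its width was 967 and 1887 bp in WT, 546 and 636 bp in Y641F, 610 and 946 bp in A677G, with 646 and 608 bp in H689A/F667I. Both WT peaks were wider than all 6 mutant peaks, but they differed from each other by more than WT replicate 1 did from any mutant library. In H689A/F667I the centred log2 difference in width was −0.86 ± 0.34, with a limma adjusted p of 0.962, and it was −1.34 without WT replicate 1 and −0.37 without WT replicate 2.

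The deposited strength of the MALAT1 peak was lowest in Y641F and highest in A677G. The −log10 p was 11.1 and 9.06 in WT, 6.13 and 6.61 in Y641F, 11.9 and 11.4 in A677G, with 10.97 and 9.74 in H689A/F667I, so both Y641F libraries lay below and both A677G libraries above WT. The fold was 3.74 and 3.52 in WT, 3.54 and 3.53 in Y641F, 4.82 and 4.45 in A677G, with 4.27 and 3.85 in H689A/F667I. After centring, the Y641F difference in log2 of −log10 p was −0.06 ± 0.20, as −log10 p had a lower median over all regions in that line. The A677G difference was 0.43 ± 0.11 in log2 fold (limma adjusted p = 0.160) and 0.61 ± 0.20 in log2 of −log10 p (limma adjusted p = 0.230). Neither passed the threshold, and the difference between the GOF lines was not tested. MALAT1 region 2 (chr11:65506793-65507856), at the 3′ end of the gene and at a start of its antisense partner TALAM1, was open in both libraries of WT and of Y641F and in 1 each of A677G and H689A/F667I.

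NEAT1, the scaffold of paraspeckles, lies upstream of MALAT1 on chromosome 11 and had its promoter peak in 7 libraries. NEAT1 region 3 (chr11:65422010-65423521) was 448 and 1045 bp wide in WT, 696 and 705 bp in Y641F, 364 and 761 bp in A677G. In H689A/F667I it was 225 bp wide in replicate 2 and closed in replicate 1. Its −log10 p was 4.60 and 4.93 in WT, 8.44 and 5.68 in Y641F, 4.35 and 4.64 in A677G and 4.05 in the open H689A/F667I library. Both Y641F libraries were thus above all others, although Y641F had the fewest peaks over the genome. The region is not among those open in all 8 libraries and so was not tested. With equal peak numbers, the NEAT1 promoter was open in both Y641F libraries and in no other, whereas at a −log10 q of at least 5 it was open in Y641F replicate 1 alone.

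Other NEAT1 regions behaved otherwise. Region 1 (chr11:65418876-65419395), upstream of the gene, had −log10 p of 8.45 and 8.70 in WT, no peak in Y641F replicate 1, 4.68 in Y641F replicate 2, 4.95 and 7.09 in A677G, with 5.30 and 5.16 in H689A/F667I. All mutant peaks were weaker than both WT peaks. Region 2 (chr11:65421180-65421511), the only one gained in H689A/F667I, had peaks of 306 and 301 bp there, with −log10 p of 5.47 and 6.71, and a peak of 215 bp in A677G replicate 2. Region 7, which reaches the 3′ end of NEAT1, was open in 6 libraries. Regions 4, 5 and 6, within the long exon, were open in 1, 3 and 1 libraries. The precursor of miR-612, inside NEAT1, was under no peak.

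MIR17HG had 1 strong promoter region and a row of weak ones along its 49907 bp. MIR17HG region 1 (chr13:91346926-91349423) was the widest of the promoters, with 2463 and 2496 bp in WT, 1981 and 2219 bp in Y641F, 1734 and 1962 bp in A677G, with 2281 and 2417 bp in H689A/F667I. In each library it was wider than at least 98.5% of the regions open in that library. In both A677G libraries it was called as 2 peaks with a gap between them, and in the other 6 libraries as 1. The −log10 p was 12.8 and 12.6 in WT, 9.93 and 10.1 in Y641F, 10.5 and 12.2 in A677G, with 11.8 and 12.0 in H689A/F667I. The centred log2 fold was higher by 0.27 ± 0.09 in Y641F, with a limma adjusted p of 0.115.

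The peaks of MIR17HG did not reach its microRNAs. All 6 precursors, 2908 to 3617 bp downstream of the canonical start, were under no peak in any library, and lay 1182 to 1891 bp from the nearest region. The products printed above thus come from DNA near the open promoter that was not under a called peak.

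Farther along MIR17HG, regions 4 and 6 were open in all 8 libraries. Region 4 (chr13:91365783-91368097) had a fold of 2.22 and 2.16 in WT, 2.47 and 2.43 in Y641F, 2.48 and 2.31 in A677G, with 2.24 and 2.24 in H689A/F667I. Every mutant value was above both WT values, and the centred log2 difference was 0.31 ± 0.07 in Y641F (limma adjusted p = 0.0503), 0.20 ± 0.07 in A677G (limma adjusted p = 0.233) and 0.08 ± 0.07 in H689A/F667I. Region 6 (chr13:91374737-91376922) had −log10 p of 9.79 and 7.54 in WT, 4.30 and 5.63 in Y641F, 5.18 and 7.77 in A677G, with 7.70 and 6.61 in H689A/F667I.

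The MIR17HG regions that were lost were weak in WT. Region 2 (chr13:91358395-91359327), closed in both A677G libraries, had −log10 p of 4.00 and 3.64 in WT, 4.62 and 4.13 in Y641F and 4.04 and 4.08 in H689A/F667I. Region 3 (chr13:91360305-91361098), closed in both GOF lines, had 3.55 and 4.02 in WT and 3.78 in H689A/F667I replicate 2. Region 5 (chr13:91368762-91369606), closed in Y641F, had 3.72 and 3.20 in WT, 3.37 and 3.41 in A677G, with 4.93 and 5.17 in H689A/F667I. The WT means of these 3 regions lay at percentiles 1.22 to 4.38 of −log10 p over the regions open in both WT libraries. Region 8 (chr13:91386565-91386851), gained in A677G, had peaks of 200 and 208 bp with −log10 p of 5.18 and 4.97. Regions 7 and 9 had a peak in Y641F replicate 2 alone.

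TUG1, first described as a taurine-regulated transcript of the retina, had the strongest peak of the 9 genes in WT and the only region that passed a test. TUG1 region 1 (chr22:30968639-30969803) is the single region of its window and also holds a start of MORC2, a chromatin ATPase gene on the opposite strand, so the 2 genes cannot be told apart. Its −log10 p was 23.1 and 18.9 in WT, 7.56 and 6.81 in Y641F, 11.5 and 15.3 in A677G, with 13.0 and 16.7 in H689A/F667I. The means were 21.0 ± 2.95 (SD, n = 2), 7.18 ± 0.536, 13.4 ± 2.70 and 14.8 ± 2.66. All 6 mutant libraries were below both WT libraries, and both Y641F libraries were below all others.

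The fold at TUG1 followed the same order, at 7.52 and 6.86 in WT, 4.95 and 4.59 in Y641F, 5.87 and 6.53 in A677G, with 6.003 and 6.80 in H689A/F667I. Width did not, at 871 and 741 bp in WT, 506 and 881 bp in Y641F, 900 and 505 bp in A677G, with 929 and 630 bp in H689A/F667I. Among the regions open in the same library, the fold stood at percentiles 99.8 and 99.2 in WT and at 89.1 and 81.4 in Y641F. The −log10 p stood at percentiles 99.1 and 97.4 in WT and at 73.0 and 61.4 in Y641F.

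After centring, log2 of −log10 p at TUG1 was lower in Y641F by −0.94 ± 0.20, with a limma adjusted p of 0.0332, while 0.458% of all 18787 regions were called lower. It was −0.25 ± 0.20 in A677G (limma adjusted p = 0.641) and −0.19 ± 0.20 in H689A/F667I (limma adjusted p = 0.823). The log2 fold differed by −0.44 ± 0.12 in Y641F, which did not pass the threshold (limma adjusted p = 0.0835). The call depended on which library was left out. It held without any single A677G or H689A/F667I library and was missed without any single WT or Y641F library. Without WT replicate 1 the limma adjusted p was 0.190, without WT replicate 2 0.128, without Y641F replicate 1 0.0893 and without Y641F replicate 2 0.107, with log2 differences of −0.82, −1.07, −1.15 and −0.74.

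GAS5, a host of small nucleolar RNAs (snoRNAs) whose transcript accumulates in growth-arrested cells, was open at both of its regions in all 8 libraries. GAS5 region 1 (chr1:173867253-173869039), shared with the start of ZBTB37, had −log10 p of 15.0 and 14.1 in WT, 22.6 and 12.8 in Y641F, 7.34 and 10.4 in A677G, with 9.44 and 10.8 in H689A/F667I. The Y641F libraries lay on either side of WT, and the 4 A677G and H689A/F667I libraries below it. The centred log2 difference of 0.83 ± 0.27 in Y641F did not pass the threshold (limma adjusted p = 0.113), and was 1.36 ± 0.22 without Y641F replicate 2 (limma adjusted p = 0.0437) and 0.29 without Y641F replicate 1. Width was 1345 and 1787 bp in WT, 796 and 1227 bp in Y641F, 1219 and 1302 bp in A677G, with 1252 and 1238 bp in H689A/F667I. Region 2 (chr1:173860916-173863228), at the start of GAS5-AS1, had −log10 p of 6.602 and 6.37 in WT, 5.42 and 5.38 in Y641F, 4.80 and 5.45 in A677G, with 7.104 and 7.19 in H689A/F667I.

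SNHG1, also a snoRNA host, was likewise open at both regions throughout. SNHG1 region 1 (chr11:62855615-62856440) holds the canonical start and that of SLC3A2, which encodes the heavy chain of an amino acid transporter. Its −log10 p was 9.16 and 13.3 in WT, 6.42 and 5.62 in Y641F, 7.98 and 10.2 in A677G, with 10.9 and 9.33 in H689A/F667I. Both Y641F libraries were below all others, with a centred log2 difference of −0.28 ± 0.24 in Y641F (limma adjusted p = 0.566). Region 2 (chr11:62849904-62852342), at the 3′ end of the gene and 803 bp from its nearest annotated start, was wider, with 1963 and 2057 bp in WT, 1118 and 2002 bp in Y641F, 1340 and 1790 bp in A677G, with 1980 and 1580 bp in H689A/F667I. Of the 7 snoRNA genes annotated inside SNHG1, 6 were under no peak, and SNORD25 was under a peak in Y641F replicate 1 alone.

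The length under peaks over a whole window had a lower mean than in WT in every gene and mutant line except HOTTIP in H689A/F667I, and lower medians over the genome as well. The median over the 9 genes was 58.7% of the WT mean in Y641F, 65.0% for A677G and 81.6% for H689A/F667I. The medians over all 30904 genes covered in both WT libraries were 50.1%, 66.2% and 78.2%, and over the 9384 lncRNA genes among them 47.3%, 64.5% and 77.2%. HOTAIR had the lowest share of the 9 in each line. The highest in Y641F and A677G was that of TUG1, at 86.0% and 87.2%. In H689A/F667I the highest was that of HOTTIP, with 1739 and 1608 bp against 1702 and 1523 bp in WT. GAS5 had 3610 and 3622 bp in WT, 2168 and 2725 bp in Y641F, 3058 and 3128 bp in A677G, with 3450 and 3523 bp in H689A/F667I, with no overlap between any 2 lines.

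**Figure D3:**
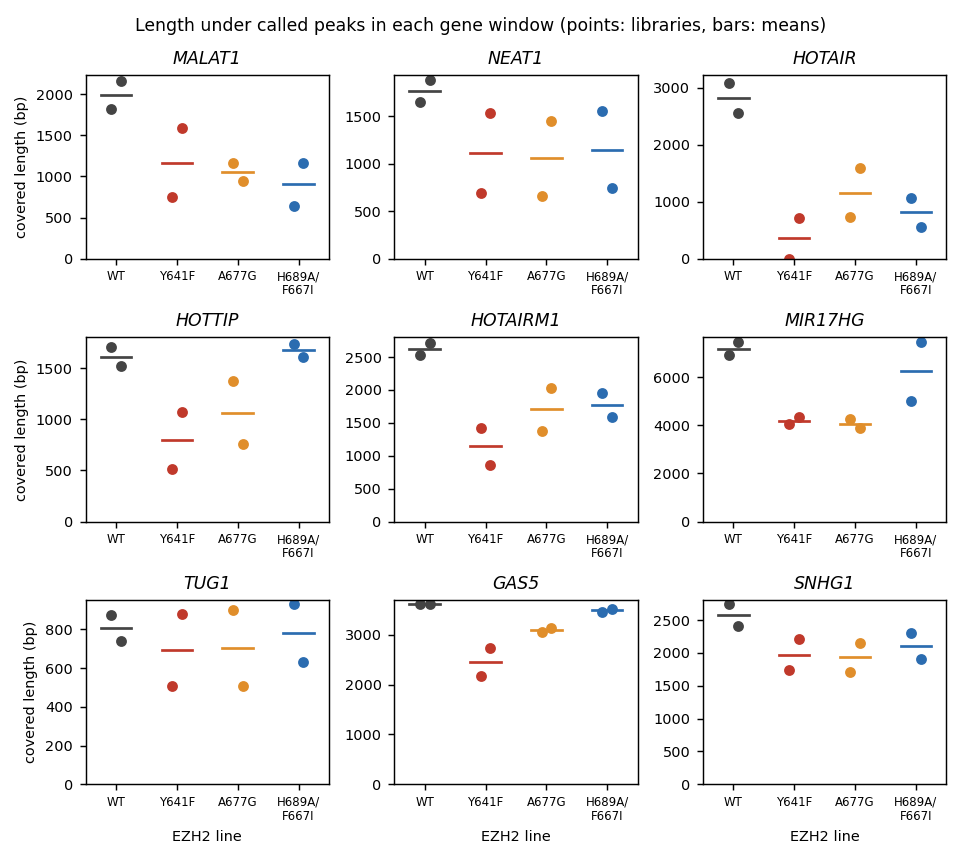
Length under called peaks (bp, axis from 0) in the window of each gene, with 1 point per library and a bar at the mean of the 2 libraries of a line. All 6 mutant libraries lie below both WT libraries at HOTAIR, and the points of TUG1 overlap between lines.

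Across the 12 member regions open in all 8 libraries, only TUG1 region 1 in Y641F passed the adjusted threshold, for −log10 p. Log2 values were centred on the median of each library over the 18787 regions open in all 8, and tested with limma with the Benjamini-Hochberg adjustment over those regions. Uncentred, the median of all regions in Y641F was −0.55 in log2 of −log10 p and −0.12 in log2 fold against WT, so the differences reported here are relative to that shift. For covered width, 0 of 12 member regions and 0% of all regions passed in each of Y641F, A677G and H689A/F667I, with 1, 0 and 2 member regions at an unadjusted limma p under 0.05, against 16.8%, 8.38% and 5.1% of all regions. For fold, 0 of 12 passed in Y641F, where 0.628% of all regions did, and 0 of 12 in A677G and H689A/F667I, where 0% did, with 6, 5 and 2 at an unadjusted p under 0.05, against 21.5%, 14.5% and 8.91% of all regions.

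For −log10 p, TUG1 was the only 1 of 12 that passed in Y641F, against 1.62% of all regions, and 0 of 12 passed in A677G and H689A/F667I, against 0.00532% in each. The unadjusted counts were 3, 1 and 2, against 19.2%, 12.7% and 9.03% of all regions. With the GOF lines set against WT and LOF together, 0 of 12 passed for width, fold or −log10 p, against 0%, 0.016% and 0.112% of all regions, and 0, 6 and 1 were at an unadjusted p under 0.05, against 14.1%, 18.3% and 15.8%. In fold, the median centred difference of the 12 regions was 0.11 in Y641F, 0.17 in A677G, with 0.13 in H689A/F667I, against 0.03, 0.02 and 0.01 over all regions. In −log10 p the medians were 0.26, 0.12 and 0.26, against 0.04, 0.02 and 0.02. In simulated data, 0% of 200 regions changed in width by −1 on the log2 scale in Y641F were recovered, and 64.5% of those changed by −2, among 18787 regions.

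**Figure D4:**
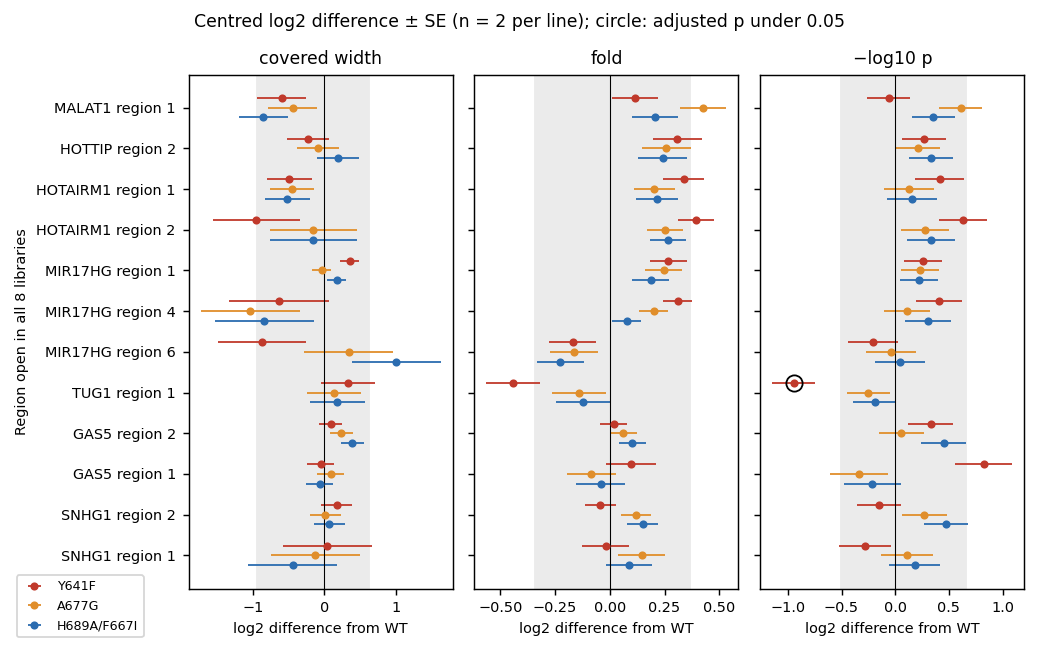
Centred log2 difference from WT ± SE (n = 2 libraries per line) in covered width, fold and −log10 p at the 12 regions open in all 8 libraries, with a grey band for the percentiles 5 to 95 of all regions in Y641F and a circle where the limma adjusted p is under 0.05. The circle stands at TUG1 in Y641F alone, at −0.94.

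Other lncRNA genes of the same kinds were counted from lists. Of 15 snoRNA host genes, 13 had an open promoter in all 8 libraries, GAS5 and SNHG1 among them. Of 15 HOX cluster lncRNA genes, 7 did, including HOTTIP and HOTAIRM1. Among the 13 HOX genes open in both WT libraries, 3 were closed in both Y641F libraries (HOTAIR, HOXA10-AS and HOXA11-AS), 1 in both A677G libraries (HOXA11-AS) and 0 in both H689A/F667I libraries. None of the snoRNA hosts was closed in both libraries of a mutant. Of 10 microRNA host genes, 6 were open in all 8 libraries, MIR17HG among them, and of 11 other lncRNA genes linked to PRC2 or nuclear bodies, 7. Over all 18756 lncRNA genes, 5443 were open in both WT libraries, of which 821 were closed in both Y641F, 405 in both A677G and 269 in both H689A/F667I libraries.

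The regions that stayed open were richer in CpG sites by median than the others, with wide overlap. The ratio of observed to expected CpG had a median of 0.678 in the 12 regions open in all 8 libraries and 0.216 in the other 20. It ranged from 0.126 to 0.986 in the former and from 0.0459 to 0.763 in the latter. Over the whole series the medians were 0.649 in 18787 regions and 0.212 in 83049, so the members followed the same pattern. The CpG ratio of the printed promoters was 0.840 at TUG1 and 0.925 at MALAT1, and that of the printed HOTAIR stretch 0.782.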

How the data were processed

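Reads were trimmed by the authors with Trim Galore 0.6.5, aligned to GRCh38/hg38 with BWA 0.7.17, removed duplicates with Samtools and called broad peaks with MACS2 2.2.7.1, separately in each library. The submitters' processing notes also name deepTools 3.5.1. The shift of reads for the transposase, the removal of mitochondrial reads and the depth were not given in the sources used here. The deposited lists give peak coordinates in bp, a fold (the ratio of pileup to local background), a −log10 p, a −log10 q and a score that was not used. The fold and −log10 values are means along the peak by the authors' caller, and −log10 p also grows with the depth of a library. The study's count-based test (DiffBind) needs reads, which were not used here.

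Peaks on chromosomes 1 to 22 and X were merged over the 8 libraries where they shared at least 1 bp, and assigned to genes and TSSs of GENCODE 44. Where several peaks of a library fell in 1 region, widths were summed and values weighted by width. Regions open in all 8 libraries were tested with limma 3.58.1 (R 4.3.3) on log2 values centred on each library's median, with 1 spread for the 4 lines. A region that is closed in any library was described without a test. The same steps were tested on simulated data. Python 3.11.15 with pandas 2.3.3 did the rest.

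Groups and replicate numbers came from the sample titles. All 9 genes were named, together with genes sharing their start regions and each region lost, gained or past the threshold. Not every gene that shares a start region or serves as a marker is reported here. The main region of a gene was the widest on average within 1 kb of its TSSs, and for HOTAIR, HOTTIP and SNHG1 this is not the region of the canonical start. Genes, lists and rules were chosen with earlier results of these data known. The alternatives tried were no centring, quantile normalization, a −log10 q of at least 5, equal peak numbers, a peak cover of at least 50%, merging under 1 kb, a window of 1 kb, the strongest peak, the replicate number as a block, and leaving out each library.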

Additional observations from a re-analysis of the deposited data

Results flagged for a closer look

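Some regions lay above WT in both libraries of 1 mutant and below WT in both libraries of another, in the values as deposited and before centring. None of these differences between mutants was tested. At MALAT1 region 1, the mean −log10 p was 5.26 higher in A677G, above both WT libraries, than in Y641F, below both. At GAS5 region 2, at the start of GAS5-AS1, H689A/F667I lay above WT and the GOF lines below it, with a mean fold 0.115 higher than in A677G and 0.298 higher than in Y641F, and a mean −log10 p higher by 2.02 and 1.75. At SNHG1 region 2, Y641F lay below WT, with a mean fold 0.423 lower than in A677G and 0.540 lower than in H689A/F667I, and a mean −log10 p 4.11 lower than in H689A/F667I. After centring, the differences from WT at GAS5 region 2 were not negative in either GOF line. In Y641F and A677G they were 0.02 and 0.06 in log2 fold and 0.33 and 0.06 in log2 of −log10 p. At SNHG1 region 2, Y641F stayed below WT, with −0.04 in log2 fold and −0.15 in log2 of −log10 p. At MALAT1 region 1, log2 of −log10 p differed by −0.06 in Y641F and 0.61 in A677G. The lower −log10 p of the Y641F libraries is shared by most regions, and its part in these differences was not tested.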

How the results depend on the processing

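The limits are those of the peak lists. Read depth is unknown, 2 libraries per line allow few calls, and presence turns on a threshold. Beyond the values below, no count of called, lost or gained regions moved by over 1.5 times. Without centring, 1 region passed for fold in Y641F, where 1099 of all 18787 regions passed as lower and 73 as higher. For −log10 p, 5 passed in Y641F, against 8702 lower and 38 higher of all regions. In the GOF lines against WT and LOF, 3 passed for −log10 p, against 5083 lower and 26 higher of all regions. Also without centring, the width of MIR17HG region 1 in Y641F turned from higher to lower (−0.24). In Y641F, 1 region passed for fold with equal peak numbers, against 193 lower and 351 higher of all 13654 regions. With 50% cover (2 regions tested) 1 passed, against 110 and 209 of all 7009. With the strongest peak 1 passed, against 71 and 160 of all 18787. The count for −log10 p was 0 at a −log10 q of at least 5 (1 region tested), with 50% cover, and without WT replicate 1, WT replicate 2 or Y641F replicate 1, and leaving out single libraries gave 0 to 1 for both. Without Y641F replicate 2 a region other than TUG1 made up the count, GAS5 region 1.

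Lost regions in Y641F were 0 with equal peak numbers, 3 with merging under 1 kb and 5 to 9 when a library was left out, with 9 without Y641F replicate 2. The share over all regions moved too, to 11.6% with equal peak numbers, 35% with merging and 54.8% without Y641F replicate 2, where the members stood at 37.5%. In A677G, lost regions were 0 with equal peak numbers and 4 to 5 when a library was left out, with 5 without WT replicate 2 or A677G replicate 2. Over all regions 6.82%, 36.1% and 35.1% were lost in these settings, against 0%, 19.2% and 20.8% of the members. In H689A/F667I, lost regions were 1 with equal peak numbers or a window of 1 kb and 2 to 5 when a library was left out, with 5 without H689A/F667I replicate 2. Over all regions 6.09%, 14.2% and 23.4% were lost in these settings, against 10%, 4.55% and 20.8% of the members. Gained regions were 3 of 10 in Y641F with equal peak numbers, against 9.3% of all regions. They were 0 to 2 when a library was left out, with 2 of 5 without Y641F replicate 1, against 17.2% of all regions. In A677G, gained regions were 0 of 1 at a −log10 q of at least 5, against 2.66% of all regions. They were 1 to 2 when a library was left out, with 2 of 5 without A677G replicate 1, against 24.6% of all regions. In H689A/F667I, gained regions were 0 at that limit, with merging under 1 kb and with a window of 1 kb, against 6.67%, 3.21% and 2.83% of all regions. They were 1 to 2 when a library was left out, with 2 of 5 without H689A/F667I replicate 2, against 23.6% of all regions. The causes of these shifts were not tested.

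Same-numbered replicates did not deviate together in the centred width, fold and −log10 p (correlations from −0.02 to 0.04). This does not show whether same-numbered libraries were handled together. With the replicate number as a block, 1 region still passed for −log10 p in Y641F, TUG1 at an adjusted p of 0.0445, and no other count of member regions past the adjusted threshold changed. Over all regions, the block left 1 call for fold in Y641F in place of 118, and 0 for −log10 p in the GOF lines against WT and LOF in place of 21.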
